A study of Mus musculus with 4 samples.

Results

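Kinesins are motor proteins that use ATP to walk along microtubules or to take them apart, and their genes are the subject here. The genes were found by symbol, as every gene whose probe set carried exactly 1 gene symbol of the form Kif with a number and an optional letter, or Kifc with a number. This gave 40 kinesin genes of the 22180 genes with such a probe set. Of these, 12 are mitotic kinesins (Kif2c, Kif4, Kif11, Kif14, Kif15, Kif18a, Kif18b, Kif20a, Kif20b, Kif22, Kif23 and Kifc1) and 28 are the other kinesins. Genes with a mean signal of at least 2.34 log2, the median over the whole table and called the dim level below, were tested. That kept 34 of the 40 kinesins, 11 mitotic and 23 other, and 12708 genes in all.

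The cells were skeletal stem cells of mice aged 4 to 6 weeks, with the genotype Mmp14+/+ (wild type) or Mmp14-/- (knockout). Both groups were held in 3-dimensional collagen gel, 48 h in each case, and no other allele or agent is named. Expression was read on 4 Affymetrix arrays, 2 per genotype, which the titles number 1 and 2. Whether arrays of a genotype stem from different mice, different cultures or pooled animals is not stated. Each p-value therefore reflects only scatter within the groups, taken partly from the gene itself and partly from all tested genes. That scatter may be technical. Mmp14, which encodes a membrane-anchored collagen-cleaving protease, had signals of 8.77 and 8.83 log2 in wild type, against knockout signals of 5.77 and 5.84 (limma adjusted p = 0.000278). Its single probe set checks the labels only as far as it lies in the deleted part, which the labels do not give. All 11 skeletal stem and stromal markers looked at were above the dim level, but they differed between genotypes: Lepr fell (−2.26), Cxcl12 (1.81), Pdgfra (1.77) and Cd200 (1.46) rose, and the other 7 were not called. Their summed log2 level ran from 88.3 to 88.9 in wild type and from 90.9 to 91.5 in knockout. Of 6 skeletal muscle markers, Myod1, Myog and Myf5 lay below the dim level and Pax7, a muscle stem cell factor, rose (1.31), with a sum from 17.4 to 18.2 in wild type against 18.8 to 19.8 in knockout. All 6 endothelial markers lay below the dim level, as did 4 of 8 macrophage and leukocyte markers, Ptprc among them. The other 4 macrophage and leukocyte markers were above it and were not called. The summed log2 level of the 8 ran from 20.6 to 21.6 in wild type and from 19.8 to 20.5 in knockout. Of 3 erythroid markers on the arrays, 2 lay below the dim level and 1 was not called. Signals of different probe sets cannot be ranked against each other on an array, so levels are compared only within a gene, and each difference given is the knockout mean less the wild-type mean, in log2 units.

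Kinesins share a motor domain and differ in what is attached to it. Transport kinesins carry vesicles, organelles and cilium parts along stable microtubules in cells at any stage. Mitotic kinesins build the spindle, move chromosomes and organise the midzone where the daughter cells are cut apart, and most of them are made mainly in the later part of the cell cycle. Their promoters often hold a CHR (cell cycle genes homology region), an element bound by the MuvB complexes that hold late cell cycle genes silent in resting cells and switch them on before mitosis, frequently with CCAAT boxes upstream that bind the factor NF-Y.

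The promoter sequences are shown because the mitotic kinesins shared this element and the other kinesins mostly did not. Promoters of such genes often hold it, and members and motifs were chosen with earlier results known, so this split is a description only. The windows came from RefSeq (GRCm38.p6) and ran from 250 bases before to 50 bases after an annotated transcript start. They covered 32 of the 40 kinesins in 36 windows. The CHR was searched as TTTGAA on both strands, so it reads TTCAAA where it lies on the other strand. It was found in 10 of the 11 windows of mitotic kinesins, in 3 of the 25 windows of other kinesins (of Kif1a, Kif26b and Kif27), and in 17.9% of all 32851 promoter windows. Among the windows of genes tested on the arrays, the share was 11.9%. In each sequence below, written 5′ to 3′ on the strand of the gene, capitals mark the CHR, and in the Kif11 promoter also a CCAAT box, which reads ATTGG there.
Kif11, the 100 bases before the start, chr19:37376282-37376381, plus strand: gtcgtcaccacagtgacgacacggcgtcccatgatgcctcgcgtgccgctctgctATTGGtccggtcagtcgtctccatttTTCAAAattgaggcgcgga
Kif15, the 100 bases before the start, chr9:122950981-122951080, plus strand: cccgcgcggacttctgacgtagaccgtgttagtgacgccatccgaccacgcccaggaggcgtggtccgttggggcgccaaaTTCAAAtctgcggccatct
Kif18a, the 100 bases before the start, chr2:109280638-109280737, plus strand, with no match: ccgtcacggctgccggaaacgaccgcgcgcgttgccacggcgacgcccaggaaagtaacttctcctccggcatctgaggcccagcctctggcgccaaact
Kif22, 30 bases around the match, chr7:127042420-127042449, minus strand: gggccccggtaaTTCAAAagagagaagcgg
Kif18b, 30 bases around the match, chr11:102925104-102925133, minus strand: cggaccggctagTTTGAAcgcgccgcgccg
Kif23, 30 bases around the match, chr9:61946780-61946809, minus strand: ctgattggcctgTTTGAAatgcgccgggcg
Kif20b, 30 bases around the match, chr19:34922353-34922382, plus strand: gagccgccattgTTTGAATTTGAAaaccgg
Kifc1, 30 bases around the match, chr17:33890615-33890644, minus strand: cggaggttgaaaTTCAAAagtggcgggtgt
Kif2c, 30 bases around the match, chr4:117178858-117178887, minus strand: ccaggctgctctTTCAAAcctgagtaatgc

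In these windows the match lay close to the start in most of the mitotic kinesins. Its first base was at −19 in Kif11 and Kif15 and at −17 in Kif22, counting the first transcribed base as 1. It was at 2 in Kifc1, at 3 in Kif23, at 4 in Kif18b, at 8 and 14 in Kif20b and at 20 in Kif4. The match nearest the start was farther away in Kif2c (−103) and Kif14 (−228), and the starts used are not always the outermost of a gene, that of Kif2c lying well inside it. CCAAT, searched on both strands, was found in 7 of the 11 mitotic windows, in 9 of the 25 other windows and in 37.4% of all windows. A variant of the element, TTCGAA, occurred in 0 of the 11 mitotic windows and in that of Kif24 among the others. Another, TTTAAA, occurred in 2 mitotic windows (Kif14 and Kif2c) and in 13.2% of all windows. A match is a description of the letters only, and binding was not measured.

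**Figure D1:**
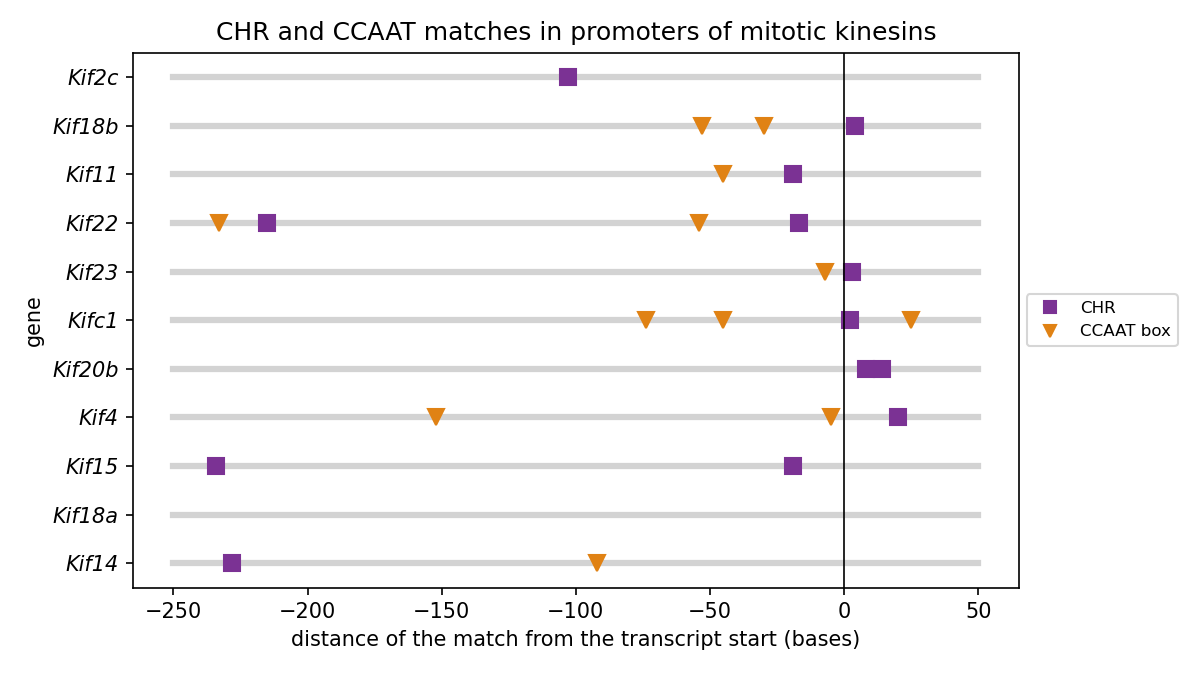
Positions of CHR (squares) and CCAAT (triangles) matches from 250 bases before to 50 bases after the transcript start, in bases, for the 11 mitotic kinesins with a promoter window, ordered by their array difference with the most lowered gene on top. Kif18a has neither match, and in 8 genes the CHR nearest the start lies between −19 and 20.

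The question asked of the arrays was which of these genes changed in cells without Mmp14. Of the 11 mitotic kinesins tested, 6 fell in knockout (Kif2c, Kif18b, Kif11, Kif22, Kif20a and Kif20b), 5 were not called and 0 rose, against 5.12% of all tested genes called lower and 6.2% called higher. A gene was called when its limma p, adjusted by Benjamini and Hochberg over the 12708 genes, was below 0.05. At an unadjusted limma p below 0.05, 8 of the 11 were lower and 0 higher, against 1712 lower and 1788 higher of all 12708 tested genes. The median difference of the 11 was −0.74, against −0.0041 over all tested genes, 2.87% of which lay at or below that median. In 9 of the 11, both knockout arrays lay below both wild-type arrays, an arrangement found in 29.8% of all tested genes. In this bulk RNA, fewer dividing cells and less of these transcripts per cell cannot be told apart, and the part of the marker differences given above in the kinesin values was not tested.

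**Figure D2:**
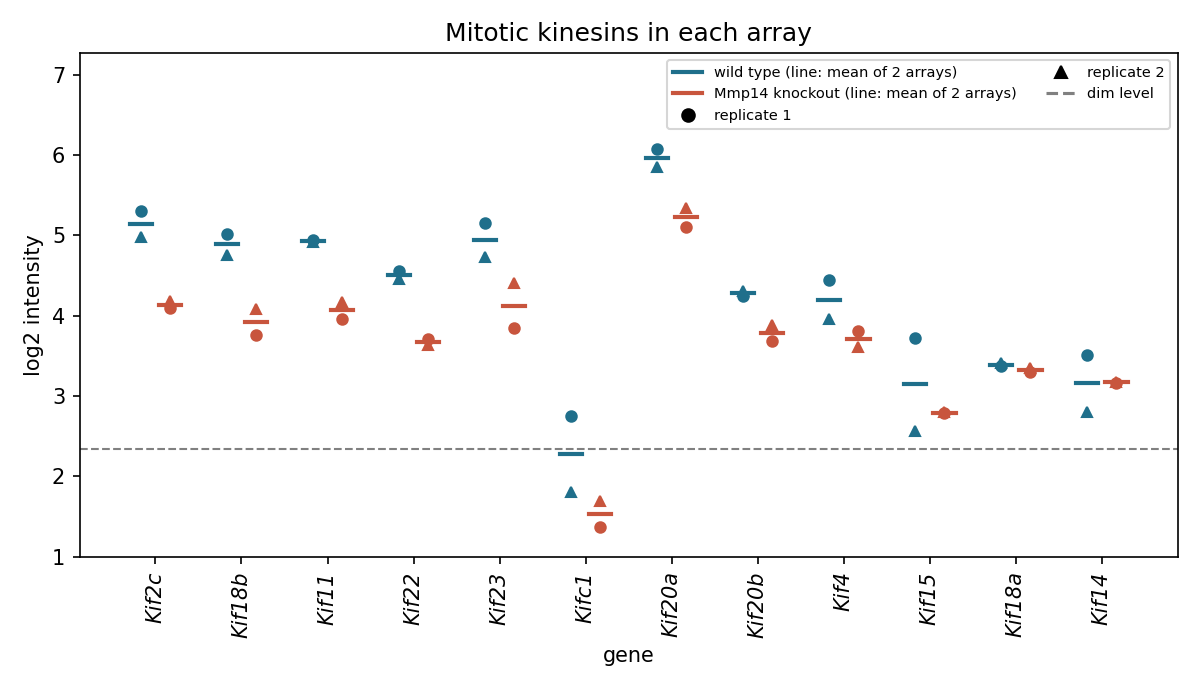
Log2 intensity of the 12 mitotic kinesins in each of the 4 arrays, with circles for replicate 1, triangles for replicate 2 and short lines for the mean of 2 arrays. From Kif2c to Kif22 the groups stand well apart, Kif15 and Kif14 overlap, and Kifc1 lies mostly under the dashed dim level of 2.34 log2.

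Among the spindle motors and microtubule depolymerases, Kif11 encodes the motor that slides spindle microtubules apart so that the spindle becomes bipolar. Its log2 signal was 4.95 and 4.92 in wild type against 3.96 and 4.18 in knockout. The groups did not overlap, and the wild-type arrays were nearly equal. Kif11 fell by 0.86 log2 with an SE of 0.118 (n = 2 arrays in each group, limma adjusted p = 0.00945), leaving 54.9% of the wild-type level. Kif15, whose protein can stand in for that of Kif11, read 3.73 and 2.57 in wild type against 2.78 and 2.80 in knockout. The knockout arrays of Kif15 fell between the 2 wild-type arrays, and its difference of −0.36 had a 95% interval from −1.21 to 0.50. Both genes carry the element at the same distance from the start. Kifc1, which encodes a motor that walks toward microtubule minus ends and focuses spindle poles, read 2.75 and 1.81 in wild type against 1.37 and 1.69 in knockout. It was too dim to be tested, and Kifc5b, a near-identical copy outside the gene set, could share its signal.

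Kif2c encodes a depolymerase that corrects wrong attachments at centromeres. It read 5.30 and 4.98 in wild type against 4.09 and 4.18 in knockout, with every wild-type value above every knockout value. It fell to 49.9% of the wild-type level (difference −1.0 log2, SE 0.139, limma adjusted p = 0.00999) and had the lowest difference of the kinesins tested. Kif18b, whose protein shortens astral microtubules, read 5.02 and 4.76 against 3.76 and 4.09. Its groups were likewise apart, and it fell by 0.96 log2 (SE 0.156, limma adjusted p = 0.0156). Kif18a, which encodes the related motor that damps chromosome movements at the metaphase plate, read 3.37 and 3.41 in wild type against 3.30 and 3.35 in knockout. Its difference was −0.07 with a 95% interval from −0.31 to 0.18. A change as large as that fitted for Kif18b lies outside this interval, although the difference between these 2 genes was not tested. Kif18a read low in both groups (means of 3.39 in wild type and 3.32 log2 in knockout), so the interval bounds its array signal only. Kif18a was also the one mitotic kinesin with a promoter window but no CHR match. Kif14 and Kif15, which have a match, were not called either, and a link between match and difference was not tested.

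Chromokinesins hold on to chromosome arms. Kif22, which pushes chromosomes toward the spindle equator, read 4.55 and 4.45 in wild type against 3.71 and 3.63 in knockout. The spread within each group was small beside the gap, and Kif22 fell by 0.83 log2 (SE 0.106, limma adjusted p = 0.00749). Kif4, a chromosome-bound motor that also sets the length of the midzone, read 4.44 and 3.95 against 3.81 and 3.61. The groups did not overlap, but the wild-type arrays differed from each other about as much as the group means did. Its difference of −0.49 (95% interval −0.93 to −0.04) was not called (limma adjusted p = 0.151). Kif4 lies on chromosome X. Xist, the RNA of the inactive X, was itself higher in knockout, with 8.45 and 8.48 log2 in wild type against 9.30 and 9.09 in knockout. The part of this in the values of Kif4 and of the other kinesin genes was not tested.

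Of the midzone and cytokinesis motors, Kif20a and Kif20b were called lower, against 5.12% of all tested genes. Kif23 and Kif14 were not called. Kif20a, which brings the Aurora B complex to the midzone, read 6.07 and 5.85 in wild type against 5.11 and 5.34 in knockout, and fell by 0.74 log2 (SE 0.135, limma adjusted p = 0.0232). Kif20b, a motor needed late in cytokinesis, read 4.25 and 4.31 against 3.69 and 3.89. It fell by 0.49 log2 (SE 0.116) with a limma adjusted p = 0.0494, just under the threshold, and was called in 3 of 12 alternatives. It missed the threshold with no filter on dim genes (0.0785), a trended robust prior (0.0587) and array weights (0.0529), among others. Kif23 encodes the motor of centralspindlin, the complex that bundles midzone microtubules. It read 5.16 and 4.73 in wild type against 3.84 and 4.41 in knockout, so its groups were apart but both were wide. Its difference of −0.82 was about as large as that of Kif22 but had an SE of 0.227 and was not called (limma adjusted p = 0.0749). Kif14, a cytokinesis motor, read 3.52 and 2.80 in wild type against 3.16 and 3.18 in knockout, with the knockout values inside the wild-type range and a difference of 0.01 (95% interval −0.55 to 0.57).

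Wild type replicate 1 read above replicate 2 in 9 of the 11 tested mitotic kinesins, by a median of 0.26 log2, against 7188 of all 12708 tested genes and a median of 0.03. In knockout, replicate 1 was above replicate 2 in 2 of the 11, with a median of −0.09. Both wild-type arrays nevertheless had a higher mean over the 11 genes (4.58 and 4.25 log2) than either knockout array (3.75 and 3.88). The number of calls, among the 11 and over all tested genes, depended on single arrays. The median difference of the 11 was −0.60 when wild type replicate 1 was left out and −0.59 when Mmp14 knockout replicate 1 was. It was −0.88 without wild type replicate 2 and −0.79 on leaving out Mmp14 knockout replicate 2. Kif2c, Kif11 and Kif22 were called in each of these 4 fits. Kif18b missed the threshold on leaving out wild type replicate 1 (limma adjusted p = 0.0502) or Mmp14 knockout replicate 1 (0.0529), and Kif20a did so without the same arrays (0.0689 and 0.102). Kif15 (−0.94, limma adjusted p = 0.018) and Kif4 (−0.73, 0.0496) were called without wild type replicate 2, and Kif23 (−1.1, 0.0261) without Mmp14 knockout replicate 2. Kif20b was not called without any 1 array (0.0787 to 0.252). When every probe set of the table was fitted at once, 0 of the mitotic kinesins were called by limma, against 218 of the 41345 probe sets. At an unadjusted limma p below 0.05, 7 were lower there, against 5384 probe sets in either direction. The lowest adjusted p among the mitotic kinesins was 0.0806, for Kif22.

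**Figure D3:**
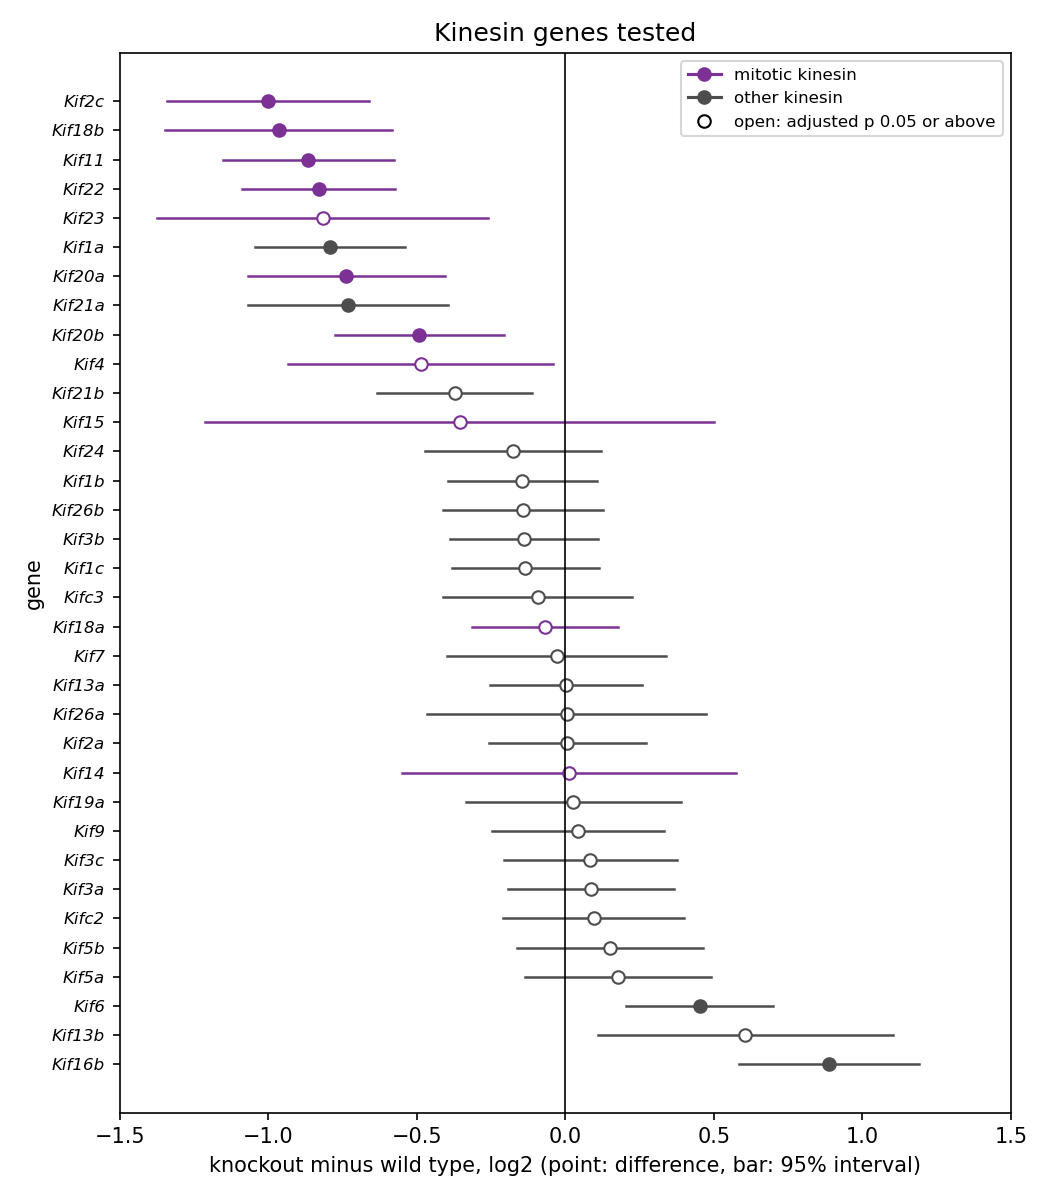
Difference between knockout and wild type (log2) for the 34 tested kinesins, with points for the difference, bars for the 95% interval, purple for mitotic and grey for other kinesins, and filled points for calls. The upper end, from Kif2c to Kif20b, holds mitotic kinesins with Kif1a and Kif21a between them, and the other kinesins gather around 0 down to Kif6, Kif13b and Kif16b.

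The other kinesins moved singly. Of the 23 tested, 2 fell (Kif1a and Kif21a), 2 rose (Kif16b and Kif6) and 19 were not called, against 11.3% of all tested genes called in either direction. At an unadjusted limma p below 0.05, 3 were lower and 3 higher, close to the share of all tested genes (1712 lower and 1788 higher of 12708). Both knockout arrays lay below both wild-type arrays in 8 of the 23 and above them in 3, against 29.8% and 28% of all tested genes. Their median difference was 0.0043, and it lay at −0.01 under quantile normalization and −0.02 after centring on array medians. Untested for low signal were Kif2b, Kif5c, Kif12, Kif17 and Kif27.

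Of 6 vesicle transport kinesins of the kinesin-3 family tested, 1 was called lower, 1 higher and 4 were not called. Over all tested genes 5.12% were called lower and 6.2% higher, so single calls say little about the family. Kif16b, whose protein moves early endosomes outward, read 5.81 and 5.70 log2 in wild type against 6.76 and 6.52 in knockout. Both knockout arrays were well above both wild-type arrays, and Kif16b rose by 0.89 log2 (SE 0.124, limma adjusted p = 0.0102), a 1.85-fold increase. It was called without each of the 4 arrays, but not when every probe set was fitted (adjusted p = 0.095). Kif13b, a transporter of signalling scaffolds, read 5.95 and 5.48 against 6.52 and 6.12. Its groups did not overlap, yet its difference of 0.61 (SE 0.203) was not called (limma adjusted p = 0.117).

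Kif1a, best known for carrying synaptic vesicle precursors in neurons, changed in the opposite direction to Kif16b. It read 4.16 and 4.07 in wild type against 3.34 and 3.31 in knockout, with little spread in either group. Kif1a fell by 0.79 log2 (SE 0.103, limma adjusted p = 0.00792), leaving 57.7% of the wild-type level, and was called without each of the 4 arrays. With every probe set fitted its adjusted p was 0.082. Of 7 neuronal markers, Snap25, Syp and Rbfox3 lay below the dim level, Map2 rose by 1.52 log2 and the other 3 were not called. The summed log2 level of the 7 ran from 24.2 to 24.8 in wild type and from 25.3 to 25.7 in knockout, and the part of neuronal transcripts in the value of Kif1a was not tested. Its relatives Kif1b and Kif1c, which carry organelles and vesicles in many cell types, had differences of −0.14 each and were not called, and Kif13a, a recycling endosome motor, had 0.0023.

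Kif21a and Kif21b encode motors that restrain microtubule growth at their tips. Kif21a read 4.63 and 4.49 in wild type against 3.68 and 3.98 in knockout, with the groups apart. It fell by 0.73 log2 (SE 0.137, limma adjusted p = 0.0248), but lost its call without either wild-type array (0.0758 for replicate 1, 0.0553 for replicate 2), without Mmp14 knockout replicate 1 (0.107) and when every probe set was fitted (0.159). Kif21b read 3.95 and 4.04 against 3.57 and 3.68, and its difference of −0.37 was not called (limma adjusted p = 0.081). Kif6 read 2.55 and 2.48 in wild type, close to the dim level, and 2.95 and 2.98 in knockout. It rose by 0.45 log2 (SE 0.101, limma adjusted p = 0.0418), but was not called without any 1 array (0.0782 to 0.173), nor with no filter on dim genes (0.0704), quantile normalization (0.0558), centring (0.0557), a trended prior (0.0902) or every probe set (0.202).

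Conventional kinesin (kinesin-1) carries mitochondria and vesicles toward microtubule plus ends. Kif5b, its widely expressed heavy chain, read 8.58 and 8.48 in wild type against 8.81 and 8.55 in knockout. The groups overlapped, and the difference of 0.15 had a 95% interval from −0.16 to 0.46. A second, dim probe set of Kif5b gave −0.22, and the mean of both −0.03. The neuronal heavy chain gene Kif5a had a difference of 0.18 and was not called.

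Of the 6 kinesin-2 and ciliary kinesins tested, 0 were called, against 11.3% of all tested genes, a share that leaves few calls among so few genes. Kif3a and Kif3b encode the paired motor that moves cargo up the primary cilium. Kif3a read 6.71 and 6.84 in wild type against 6.94 and 6.78 in knockout, a difference of 0.09 (95% interval −0.19 to 0.37). Kif3b read 5.77 and 5.73 against 5.65 and 5.58, a difference of −0.14 (−0.39 to 0.11). Kif7, the ciliary tip kinesin of Hedgehog signalling, had a difference of −0.03 (−0.40 to 0.34). Kif3c, Kif24 and Kif19a were between −0.18 and 0.08. The lowest bound among these intervals was −0.47, for Kif24, so the absence of calls does not show that the groups were equal.

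The remaining tested kinesins also had small differences. Kif2a, a depolymerase related to that of Kif2c but present outside mitosis, read 7.28 and 7.13 in wild type against 7.22 and 7.21 in knockout. Its difference of 0.0064 had a 95% interval from −0.26 to 0.27. Kif9, Kif26a, Kif26b, Kifc2 and Kifc3 ranged from −0.14 for Kif26b to 0.10 for Kifc2, and none was called.

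**Figure D4:**
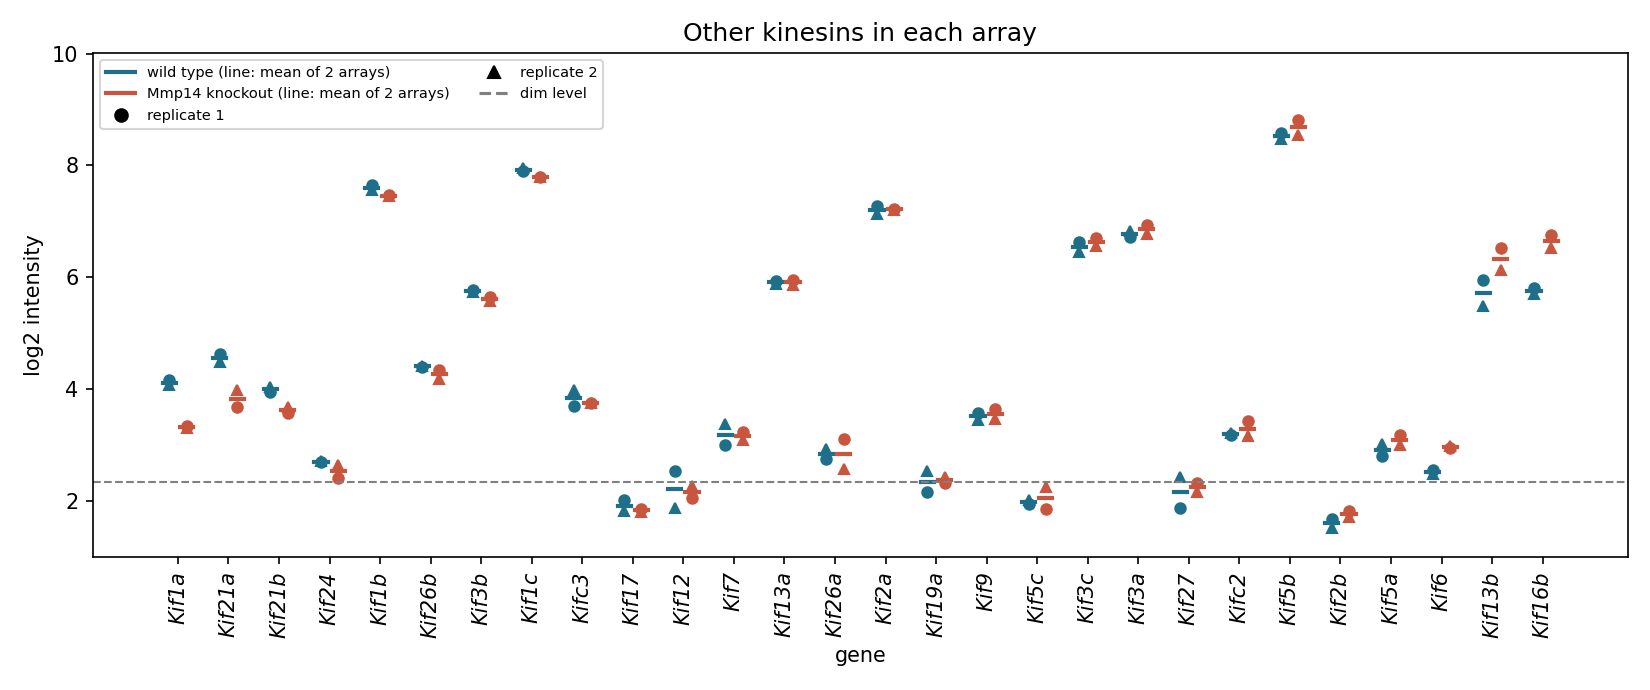
Log2 intensity of the 28 other kinesins in each of the 4 arrays, ordered from the lowest to the highest difference, with circles for replicate 1, triangles for replicate 2 and short lines for the mean of 2 arrays. Only the ends of the row show groups well apart, with Kif1a and Kif21a lower and Kif16b higher in knockout, and 5 genes average below the dashed dim level of 2.34 log2.

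The proteins that load, phosphorylate or work beside the mitotic kinesins were read from a further list. Of 29 tested genes, 12 fell, 17 were not called and 0 rose, against 5.12% of all tested genes called lower and 6.2% called higher. At an unadjusted limma p below 0.05, 23 of the 29 were lower and 0 higher, against 1712 lower and 1788 higher of all 12708. The median difference of the 29 was −0.70. Of the 12 called, Aurka (−1.21), a kinase that acts on Kif11 and the spindle poles, and Plk1 (−1.12) fell most. Nuf2 (−1.07), a part of the kinetochore, and cyclin B2 (Ccnb2, −1.03) followed. Birc5 had −1.17 but was not called (limma adjusted p = 0.0583). Prc1, the midzone bundler that recruits Kif4, read 6.17 and 5.92 in wild type against 5.0 and 5.23 in knockout and fell by 0.93 (limma adjusted p = 0.0125). Racgap1, the partner of Kif23 in centralspindlin, had a difference of −0.77 and was not called (limma adjusted p = 0.0527). The kinetochore kinesin Cenpe, whose symbol kept it out of the kinesin set, had −0.62 (0.0558). The CHR was found in 20 of 30 promoter windows of this list.

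Among regulators of mitotic transcription, 18 were tested. E2f7 (−0.83), a repressor, and Mybl2 (−0.65), which encodes the B-MYB partner of MuvB, fell, 16 were not called and 0 rose, a count of calls close to the 11.3% of all tested genes called in either direction (5.12% lower). The median of the 18 was −0.24. At an unadjusted limma p below 0.05, 8 of them were lower and 0 higher, against 1712 lower and 1788 higher of all 12708 tested genes. Foxm1, an activator that works through MuvB, read 4.33 and 4.20 in wild type against 3.87 and 3.89 in knockout. Its groups were apart, but its difference of −0.39 was not called (limma adjusted p = 0.0728). Of 25 DNA replication genes, another readout of cycling cells, 6 fell, 19 were not called and 0 rose. Over all tested genes, 5.12% were called lower and 6.2% higher. At an unadjusted limma p below 0.05, 12 of the 25 were lower and 0 higher, beside the same 1712 and 1788 of all 12708. The median of the 25 was −0.30. Replication genes with the largest falls were Rrm2 (−1.03), Mcm6 (−0.64), Cdc45 (−0.62) and Exo1 (−0.59). The CHR was found in 4 of 24 of their windows, and CCAAT in 16.

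Partners of the transport kinesins gave no calls, which for so few genes is not far from the share of all tested genes. Of 17 tested light chains and cargo adaptors, 0 were called by limma in either direction, against 11.3% of all tested genes. At an unadjusted limma p below 0.05, 1 was lower and 1 higher, against 1712 lower and 1788 higher of all 12708 tested genes. The median of the 17 was −0.05. Klc1, a light chain of conventional kinesin, had −0.05, and Kifap3, which joins Kif3a and Kif3b to cargo, had −0.28 (limma adjusted p = 0.164). Of 19 genes of dynein and dynactin, the motor that walks the other way, 1 rose and 18 were not called, with a median of −0.13. That single call is near the 6.2% of all tested genes called higher. At an unadjusted limma p below 0.05, 3 of the 19 were lower and 1 higher, beside the same counts over all tested genes. The gene called was Dync2h1, the heavy chain of the dynein that returns cargo from the cilium tip. It read 4.26 and 4.45 in wild type against 5.06 and 5.10 in knockout (difference 0.73, SE 0.114, limma adjusted p = 0.014).

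**Figure D5:**
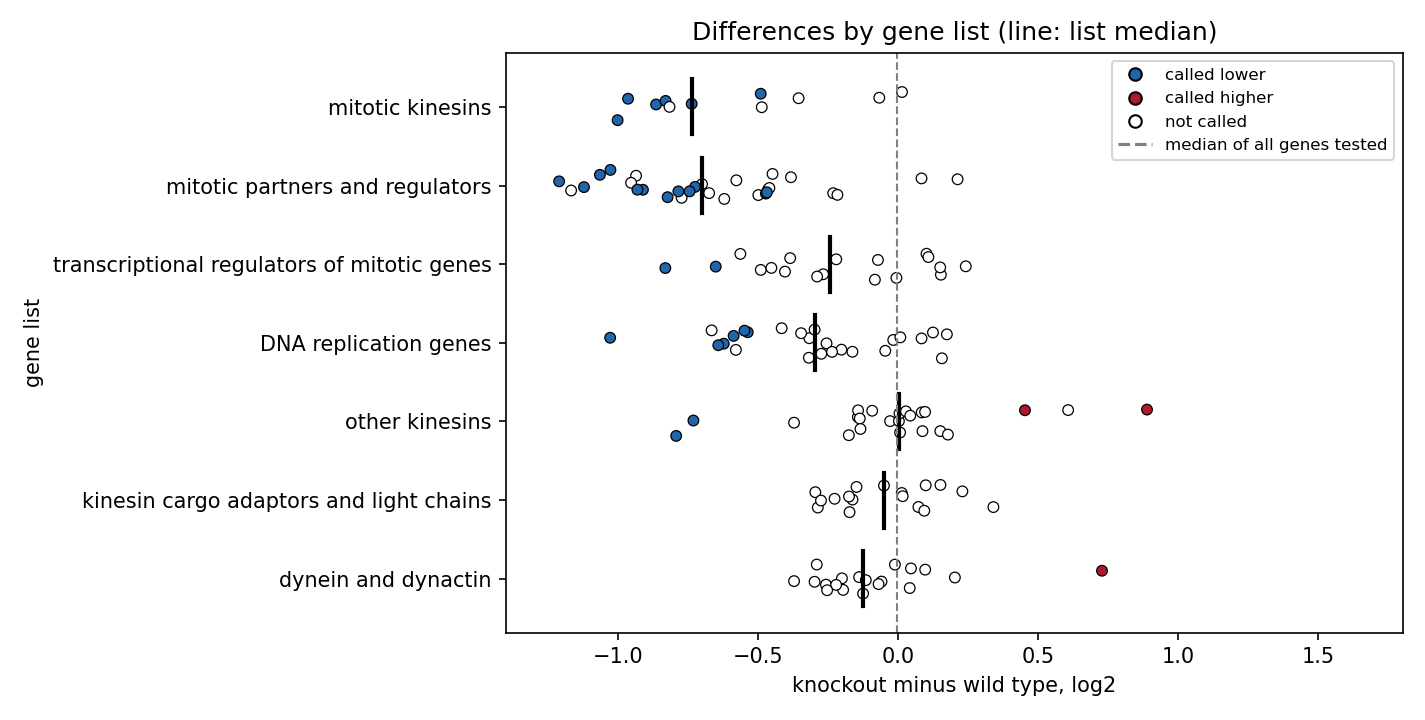
Difference between knockout and wild type (log2) for every tested gene of 7 lists, with filled points for calls, a thick line for the list median and a dashed line for the median of all tested genes. Mitotic kinesins and their partners have medians of −0.74 and −0.70, replication genes lie between them and the transport lists, and the other kinesins centre on 0.0043.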

How the data were processed

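The data were 4 Affymetrix arrays, 2 per genotype, made from 10 ng of total RNA each per the labels. The authors deposited log2 intensities for 41345 probe sets, which ran from 0.43 to 12.2. Per the submitters' processing notes, oligo and limma were used, in a role not given. Normalization and build are not given in the sources used here. Symbols came from the supplied probe annotation: 23521 probe sets had 1 symbol, 1814 several and 16010 none. Entrez identifiers of 23328 were in the RefSeq annotation, and 0 symbols needed updating. The 40 kinesins had 43 probe sets, and the brightest stood for its gene. Groups were compared with limma 3.58.1 in R 4.3.3 (lmFit and eBayes, two-sided, no block, 2 residual and 3.99 prior degrees of freedom). The fit was checked on simulated data with 200 of 12708 genes changed, fewer than the 1439 called here. It called 2.09% of changes of 0.5 log2, 75.1% of 1 log2 and 98.3% of 2 log2, and 4.59% of its calls were unchanged genes. With fewer genes changed, the adjusted threshold is harder to pass, so these shares may be too low for the arrays. A missing call at about 0.5 log2 says little, although Kif20b (−0.49) and Kif6 (0.45) were called. The number of arrays limits the precision. Replicate numbers were not treated as pairs: deviations of same-numbered arrays correlated at −0.04. Every mitotic kinesin and every called other kinesin was named, with up to 4 called members of each further list. Members, lists and motifs were chosen with earlier results of these data known. Alternatives covered the filter, scaling, variance model, array weights, probe sets, replicate block and leaving out each array. RefSeq promoter sequences were matched by symbol.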

Additional observations from a re-analysis of the deposited data

How the results depend on the processing

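The median of the mitotic kinesins stayed below 0 under every alternative run, from −0.88 to −0.59 when single arrays were left out. By limma, 0 mitotic kinesins were called higher in any fit that kept all 4 arrays (also 0 at an unadjusted p below 0.05). Single genes varied more: without wild type replicate 1, Kif14 was at 0.37 and Kif15 at 0.22. Counts moved more. With every probe set fitted, 218 features were called in place of 1439 genes, and 0 mitotic kinesins lower, 0 other kinesins lower and 0 higher. None of the 10 kinesins called in the main comparison was called there (adjusted p from 0.0806 to 0.227). The stricter filter, a mean of at least 4.76 log2, called 1644 of 7583 genes in all, against 1439 of 12708 in the main comparison. It left 1 mitotic kinesin, which was called lower, and 10 other kinesins. Of these 10, 0 were called lower (Kif1a and Kif21a were not tested there). Called higher were 2 of them, Kif16b and Kif13b (limma adjusted p = 0.0416). Other kinesins called higher numbered 1 with no filter, quantile normalization, centring or a trended robust prior. In the same order, 1124, 1488, 1441 and 2099 genes were called in all. With the replicate number as a block, 4 mitotic and 1 other kinesin were called lower and 2 other kinesins higher; Kif20a (adjusted p = 0.053), Kif20b (0.0715), Kif21a (0.0524) and Kif6 (0.0812) missed the threshold and Kif13b (0.0413) passed it. The block moved the count of all called genes to 1057. Leaving out single arrays gave 687 to 1131 called genes, 3 to 7 mitotic kinesins lower, 1 to 2 other kinesins lower and 1 higher.

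Some genes without a call changed sign, and none was called where its sign changed. Kif13a was at −0.0034 with quantile normalization, −0.019 with centring and −0.042 to 0.046 without single arrays. Kif14 was at −0.045, −0.0082 and −0.34 to 0.37, and Kif26a at −0.048, −0.017 and −0.27 to 0.28, in the same order. Kif9 was at −0.014 with quantile normalization and −0.050 to 0.14 without single arrays, and Kif2a at −0.015 with centring and −0.068 to 0.081. Kif5b was at −0.035 with the mean of its probe sets. Without single arrays Kif15 ran from −0.94 to 0.22, Kif19a from −0.15 to 0.21, Kif7 from −0.21 to 0.15, Kifc2 from −0.033 to 0.22 and Kifc3 from −0.24 to 0.052. Signals near the dim level (Kifc1, Kif6, Kif24, Kif19a) limit what these arrays can show. Among the tested mitotic kinesins, Kif14, Kif15 and Kif18a also read low, with group means from 2.79 to 3.39 log2.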
